A study of Mus musculus with 5 samples.

Results

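A set of 5 genes of ion transport at the brain vessel wall were followed through isolated brain microvessels of diabetic and control mice: the sodium pump beta subunits Atp1b1 and Atp1b2, the cation-chloride cotransporter Slc12a2, the sodium-calcium exchanger Slc8a1 and the carbonic anhydrase Car4. They were chosen by gene symbol, as the rows whose Ensembl identifiers carry these symbols in the GENCODE vM1 annotation of the mouse genome build NCBIM37, and each symbol matched 1 row, giving 5 of 34615 gene symbols and 37982 identifiers measured. The study asked which genes of the brain microvasculature differ under long-lasting hyperglycaemia. RNA was sequenced from microvascular fragments of 5 male mice on a C57BL6 background, aged 26 to 38 weeks, with 1 library per mouse. The 3 control mice (WT) were wildtype, and the 2 diabetic mice (Ins2-AKITA) were their heterozygous littermates. The AKITA allele is a coding change in the insulin gene Ins2 that makes the hormone misfold in pancreatic beta cells, so RNA levels do not check the genotype labels. Fragments were captured with antibody-coated beads against PECAM1, a surface protein of endothelial cells, and they carry pericytes and astrocyte end-feet along with the endothelium.

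The sodium pump moves sodium out of the cell and potassium in at the cost of ATP, and it is a dimer of a catalytic alpha subunit and a glycosylated beta subunit that folds the alpha subunit and brings it to the membrane. At the blood-brain barrier, the sodium gradient set up by the pump drives secondary transporters in endothelial cells and in the astrocyte end-feet around them. Slc12a2 carries sodium, potassium and chloride inward on that gradient, Slc8a1 exchanges sodium for calcium, and Car4, tethered to the outer face of the plasma membrane by a lipid anchor, turns carbon dioxide and bicarbonate into each other for the acid-base transporters.

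All 5 genes were detected in every mouse, and none differed between Ins2-AKITA and WT beyond the spread between mice. Levels are given as FPKM, the fragments counted per kilobase of transcript and scaled to the mapped fragments of the library, which can be set side by side between genes because the length is divided out. Differences are log2 fold changes of Ins2-AKITA minus WT, computed on log2(FPKM + 1), a scale that understates the change of weakly expressed genes. Values joined by a plus-minus sign are the mean and the SD over 3 WT or 2 Ins2-AKITA mice. Of 16286 genes with a mean of at least 1 FPKM, limma called 0.0246% at an adjusted p under 0.05 and 4.46% at an unadjusted p under 0.05, and 0 of the 5 members passed either threshold. The values below were negative for Atp1b1, Slc12a2 and Car4 and positive for Atp1b2 and Slc8a1. With the libraries scaled as TPM and read relative to the median of all genes, all 5 were positive. Scaling multiplies every gene of a library alike, so this turn rests on the 1 added before the log to the smaller TPM values. The 2 Ins2-AKITA mice lay above all 3 WT mice in 9.24% of the genes tested and below them in 10.3%, and again 0 of the 5 members did so in either direction. With 3 mice against 2, an exact permutation test of 1 gene cannot give a p below 0.1.

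**Figure D1:**
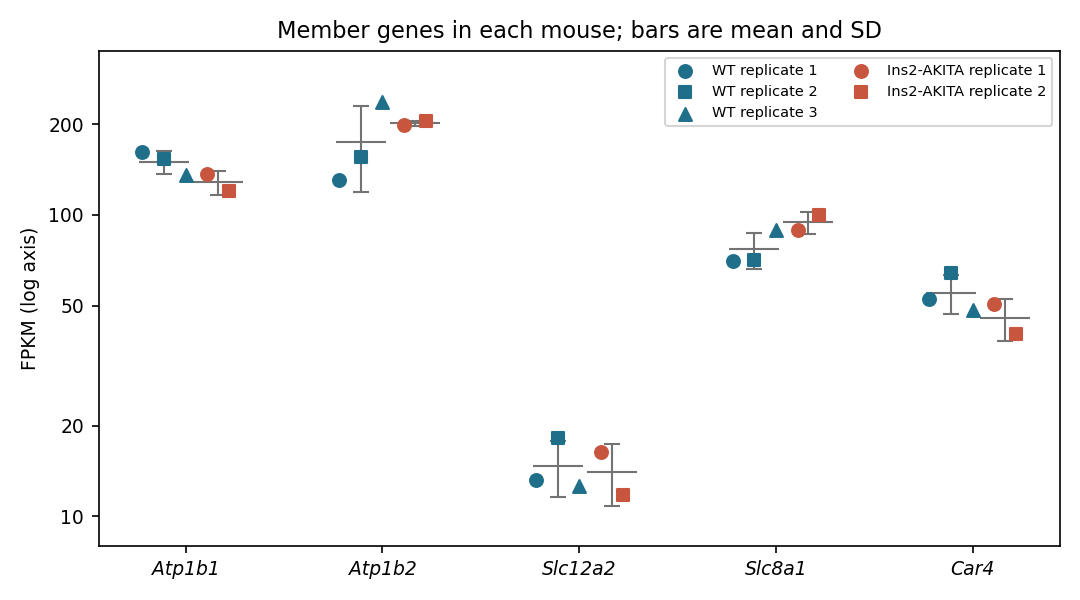
FPKM on a log axis of the 5 member genes in each mouse, blue for WT and red for Ins2-AKITA, with the grey bars giving the mean and SD of each group. The groups overlap for every gene, and WT replicate 3 stands at 237 FPKM for Atp1b2, above both Ins2-AKITA mice.

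Atp1b1 encodes the beta1 subunit, the partner of alpha subunits in most tissues. The gene (ENSMUSG00000026576) lies on the minus strand of chromosome 1, from 166367398 to 166388486, with 1 annotated transcript of 2422 bases. It stood at 162, 153 and 135 FPKM in WT replicates 1, 2 and 3 and at 136 and 120.1 FPKM in Ins2-AKITA replicates 1 and 2. WT replicate 3 sat just under the first Ins2-AKITA mouse, so the groups overlapped there. The group means were 149.97 ± 13.4 FPKM in WT and 128 ± 11.3 FPKM in Ins2-AKITA, and the log2 fold change was -0.22 with a standard error of 0.18, a 95% confidence interval of -0.66 to 0.21 and an adjusted p of 0.90 in limma. The exact two-sided permutation test gave p = 0.3. Atp1b1 was the steadiest member among the WT mice, with a coefficient of variation of 8.96%. Its single transcript let the fragments behind each value be estimated from the FPKM and the length, at 337 to 847 per mouse, which corresponds to a counting error of 3.44 to 5.45%.

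Atp1b2 encodes the beta2 subunit, which was first described in brain as an adhesion molecule on glia. It is on the minus strand of chromosome 11 (69413238 to 69419444, ENSMUSG00000041329, 5 transcripts). WT replicates 1, 2 and 3 held 131, 155 and 237 FPKM, and the Ins2-AKITA mice held 198 and 204 FPKM. The control mice therefore spanned both sides of the diabetic mice, and the spread among them (coefficient of variation 31.9%, a 1.81-fold range) was the widest of the members. Means were 175 ± 55.8 FPKM in WT and 201 ± 4.01 FPKM in Ins2-AKITA. The log2 fold change of Atp1b2 was 0.25 with a standard error of 0.28 (95% confidence interval -0.43 to 0.93, limma adjusted p = 0.90), and the exact permutation p was 0.5. Its size rested on single controls, since it was 0.49 without WT replicate 3 and 0.07 without WT replicate 1.

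Slc12a2, also known as NKCC1, is the cotransporter inhibited by the loop diuretic bumetanide, and it is found on endothelial cells and, at high levels, on the choroid plexus. Slc12a2 (ENSMUSG00000024597) occupies chromosome 18 from 58038332 to 58106475 on the plus strand, with 2 transcripts. Its levels were the lowest of the members, at 13.2, 18.2 and 12.6 FPKM in WT and 16.4 and 11.8 FPKM in Ins2-AKITA. The highest mouse was a control and the lowest a diabetic mouse, with the remaining mice interleaved. Slc12a2 averaged 14.7 ± 3.09 FPKM in WT and 14.1 ± 3.27 FPKM in Ins2-AKITA, and its log2 fold change of -0.06 (standard error 0.27, 95% confidence interval -0.71 to 0.60, limma adjusted p = 0.98) took either sign when single mice were left out, from -0.28 to 0.17. The exact permutation p was 0.9.

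Markers of the choroid plexus, a ventricular epithelium outside the vessel wall, were present in all 5 libraries (Ttr, Kl, Folr1, Kcne2 and Clic6). WT replicates 1, 2 and 3 held 1831, 2068 and 699 FPKM of these markers in sum, and the Ins2-AKITA mice held 1856 and 993 FPKM. The sum was almost all Ttr, which ranged from 669 to 1993 FPKM. The 3 mice with the largest sums were the 3 with the highest Slc12a2, while the remaining mice had the opposite order in the 2 measures. The same 3 mice were also highest for Atp1b1 and Car4, so this order is not particular to Slc12a2. Single markers differed from it, with Kcne2 lowest in WT replicate 1 at 3.65 FPKM. The part of this tissue in the Slc12a2 values was not tested. In RNA of mixed tissue, fewer cells of a type and less RNA per cell cannot be told apart.

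Slc8a1, or NCX1, removes calcium from the cell using the inward pull on sodium, and it runs in reverse when that gradient weakens. The gene (ENSMUSG00000054640) covers chromosome 17 from 81785359 to 82048947 on the minus strand and has 7 transcripts. WT mice gave 70.5, 71.0 and 88.9 FPKM and Ins2-AKITA mice 88.8 and 100.1 FPKM. WT replicate 3 and the first Ins2-AKITA mouse were level, and the other 2 WT mice lay below both. From 76.8 ± 10.4 FPKM in WT to 94.4 ± 7.97 FPKM in Ins2-AKITA, the log2 fold change was 0.30, the largest among the members in absolute size, with a standard error of 0.19 and a 95% confidence interval of -0.17 to 0.77. It did not pass the test (limma unadjusted p = 0.17, adjusted p = 0.90, exact permutation p = 0.3). Without WT replicate 3 the value was 0.41.

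Car4 is a marker of the luminal face of brain capillaries. Car4 (ENSMUSG00000000805, 7 transcripts) is on the plus strand of chromosome 11, from 84771288 to 84779546. The WT levels were 52.7, 63.9 and 48.5 FPKM and the Ins2-AKITA levels 50.6 and 40.4 FPKM. The first Ins2-AKITA mouse fell within the WT range and the second lay below it. Car4 had means of 55.0 ± 8.0 FPKM in WT and 45.5 ± 7.22 FPKM in Ins2-AKITA, a log2 fold change of -0.27 (standard error 0.21, 95% confidence interval -0.78 to 0.24, limma adjusted p = 0.90) and an exact permutation p of 0.4. Without WT replicate 2 the value was -0.16, without Ins2-AKITA replicate 2 -0.11 and without Ins2-AKITA replicate 1 -0.43.

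Ranked by mean FPKM over the 5 mice, Atp1b2 (185, the 97.9th percentile of the genes tested) came first, before Atp1b1 (141), Slc8a1 (83.8), Car4 (51.2) and Slc12a2 (14.4, the 60.6th percentile). Atp1b2 exceeded Atp1b1 in 4 of 5 mice, and the within-mouse difference of 0.37 ± 0.49 on the log2 scale was smaller than its spread (exact sign-flip permutation p = 0.1875, adjusted p = 0.1875 over the 4 neighbours). The other 3 steps kept their order in 5 of 5 mice. Atp1b1 stood 0.76 ± 0.39 log2 units above Slc8a1, Slc8a1 0.71 ± 0.45 above Car4, and Car4 1.83 ± 0.15 above Slc12a2, a 3.56-fold step. Each of these had the smallest p that 5 mice allow in this exact permutation test, 0.063, and an adjusted p of 0.083. The step from Car4 to Slc12a2 was the evenest of the 4 between mice. Its log2 ratio was 1.99, 1.81 and 1.95 in the controls against 1.63 and 1.78 in Ins2-AKITA, with both diabetic mice below all controls at an exact permutation p of 0.2.

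Within the pump, the balance of the beta subunits differed more between control mice than between genotypes. The log2 ratio of Atp1b2 to Atp1b1 was -0.31, 0.02 and 0.81 in the WT mice, against 0.54 and 0.76 in Ins2-AKITA (exact permutation p = 0.4). Atp1b1 made up 48.7, 44.0 and 32.3% of the summed beta subunit FPKM in WT, against 36.2 and 32.8% in Ins2-AKITA, so that WT replicate 3 held the lowest share of all. Atp1b2 made up 39.4, 44.7 and 56.6% in WT, against 52.8 and 55.8% in Ins2-AKITA. Atp1b3, the remaining widely expressed beta subunit, stayed between 10.9 and 11.9% in all mice, at 41.8 ± 4.06 FPKM in WT and 41.3 ± 0.37 FPKM in Ins2-AKITA, and Atp1b4, a muscle protein, was listed at 0 in all of them.

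**Figure D2:**
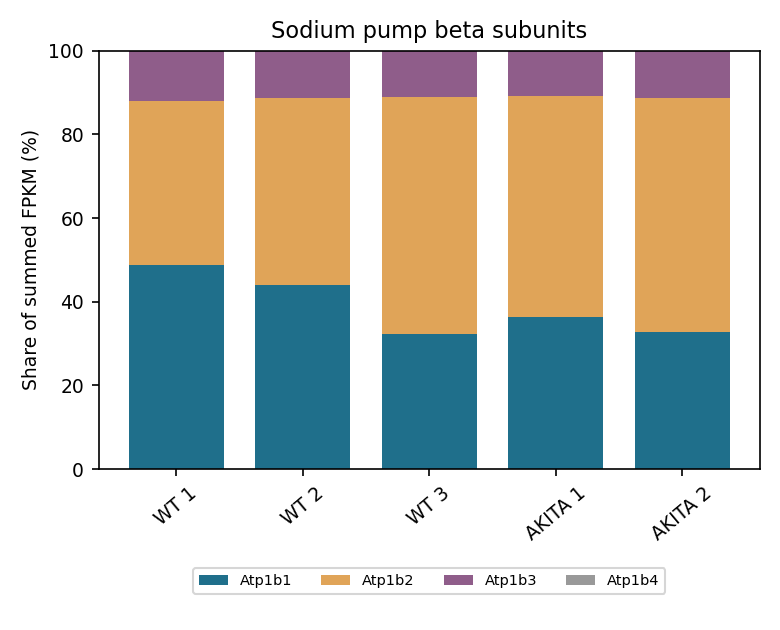
Stacked bars give the share of each isoform, in percent, in the summed FPKM of the sodium pump beta subunits for each mouse; AKITA stands for Ins2-AKITA. Atp1b2 takes 39.4 and 44.7% of the beta subunits in WT replicates 1 and 2 and 52.8 to 56.6% in WT replicate 3 and both Ins2-AKITA mice.

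The members fell into a pair and a trio by how they moved over the mice. Each profile of log2(FPKM + 1) was centred on its own mean over the 5 mice and compared by the root mean square difference, where 0 means the same profile. Atp1b1 and Car4 differed by 0.12, Slc12a2 and Car4 also by 0.12, Atp1b1 and Slc12a2 by 0.20, and Atp1b2 and Slc8a1 by 0.17. The 6 pairs taken across these groups differed by 0.34 to 0.46. These distances describe 5 libraries that share their preparation and carry no test. Small and ribosomal RNA took 96.7% of the FPKM sum in WT replicate 1, 96.6% in WT replicate 2 and 89.6% in Ins2-AKITA replicate 1. WT replicate 3 had 58.0% and Ins2-AKITA replicate 2 had 40.6%. Down this order of mice Atp1b1 fell at every step and Slc8a1 rose at every step. Atp1b2, Slc12a2 and Car4 each ranked the mice differently. The part of this RNA in the member profiles was not tested.

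Marker levels of the endothelium and of astrocytes also differed from mouse to mouse. All 8 endothelial markers had negative log2 fold changes (median -0.44). In 3 of 8 both Ins2-AKITA mice were below all WT mice, against 10.3% of all genes tested. The summed FPKM of the 8 was 447 to 789 in WT and 389 to 465 in Ins2-AKITA, and none was at 0. All 7 astrocyte markers had positive values (median 0.52). In 4 of 7 both Ins2-AKITA mice were above all WT mice, against 9.24% of all genes tested. The summed FPKM of the 7 was 2118 to 2927 in WT and 3338 to 3933 in Ins2-AKITA, and none was at 0. No gene of either list passed the adjusted threshold in limma, and their part in the member values was not tested. The mean marker profile of the endothelial list lay 0.15 from Car4, 0.23 from Atp1b1, 0.24 from Slc12a2, 0.52 from Slc8a1 and 0.59 from Atp1b2. That of the astrocyte list lay 0.15 from Slc8a1, 0.20 from Atp1b2, 0.48 from Slc12a2, 0.49 from Atp1b1 and 0.53 from Car4.

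**Figure D3:**
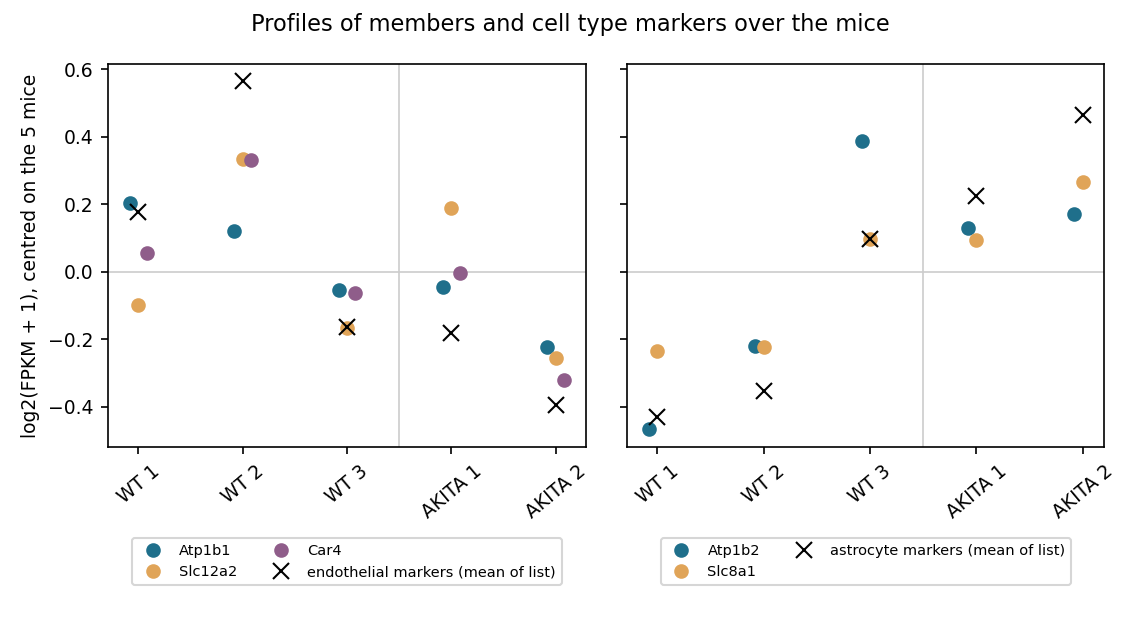
Points give log2(FPKM + 1) in each mouse, centred on the mean of the 5 mice, for Atp1b1, Slc12a2 and Car4 with the mean of 8 endothelial markers (left) and for Atp1b2 and Slc8a1 with the mean of 7 astrocyte markers (right); the vertical line parts WT from Ins2-AKITA. WT replicate 2 is highest for the endothelial markers (0.56) and Ins2-AKITA replicate 2 lowest (-0.40), while the astrocyte markers run from -0.43 in WT replicate 1 to 0.47 in Ins2-AKITA replicate 2. The other marker lists are not drawn.

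Ratios of the members to the marker lists were taken within each mouse, as FPKM over the geometric mean of FPKM + 1 of the markers. The scaling of the library drops out of them except through the 1 added to the marker values. Together with the ratios and shares within the pump and between members, 21 were computed and the p-values adjusted over all of them, with 0.47 the smallest adjusted value. In 9 of the 21 the groups did not overlap, and no such share was computed for ratios over all genes. Relative to the endothelial markers, all 5 members had higher mean log2 ratios in Ins2-AKITA than in WT, by 0.79 for Slc8a1, 0.73 for Atp1b2, 0.42 for Slc12a2, 0.25 for Atp1b1 and 0.21 for Car4. Both Ins2-AKITA mice lay above all WT mice for Slc8a1, Slc12a2 and Atp1b1, and the groups overlapped for Atp1b2 and Car4. Relative to the astrocyte markers, all 5 had lower mean log2 ratios, with differences of -0.85 for Car4, -0.80 for Atp1b1, -0.63 for Slc12a2, -0.32 for Atp1b2 and -0.27 for Slc8a1, and only Slc12a2 overlapped between the groups. The denominators themselves were lower (endothelial) and higher (astrocyte) in Ins2-AKITA, as given above, so these directions are not particular to 1 member. The smallest possible exact permutation p of 0.1 was reached by Slc12a2 to the endothelial markers (-2.31, -2.24 and -2.05 in WT, against -1.65 and -1.91 in Ins2-AKITA) and by Slc8a1 to the astrocyte markers (-1.09, -1.16 and -1.29 in WT, against -1.41 and -1.48 in Ins2-AKITA), each with an adjusted p of 0.47.

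The remaining marker lists show what else the fragments held. Summed smooth muscle markers were 212 to 249 FPKM in WT and 129 to 166 FPKM in Ins2-AKITA. Both Ins2-AKITA mice were below all WT mice in 4 of 4 of these genes, against 10.3% of all genes tested. In limma 0 of the 4 passed the adjusted threshold. Pericyte markers summed to 186 to 235 and 165 to 210.4 FPKM, neuronal markers to 709 to 787 and 707 to 837 FPKM, oligodendrocyte markers to 1875 to 2554 and 2028 to 2224 FPKM, and microglial markers to 42.1 to 82.5 and 70.4 to 75.5 FPKM, in WT and Ins2-AKITA. Globin and other red cell RNA summed to 35.1 to 67.7 FPKM in WT and 25.1 to 32.4 FPKM in Ins2-AKITA, with Hbb-b2 at 0 in Ins2-AKITA replicate 2. The libraries rested on an estimated 1126990 to 1319450 fragments, apart from WT replicate 3 with 2850560. Small and ribosomal RNA took 58.0 to 96.7% of the FPKM sum in WT and 40.6 to 89.6% in Ins2-AKITA, and scaling by that sum, as TPM does, moved the median log2 fold change over the genes tested from -0.03 to 1.07.

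The genes closest to each member in profile were picked from 8186 genes with a mean of at least 10 FPKM, as the 3 with the smallest root mean square difference over the 5 mice. For Atp1b1 they were Tmem179 (0.017), Ranbp3 (0.029) and Prrc2c (0.037). For Atp1b2 they were BC026585 (0.033), Plekha3 (0.038) and Ccnd2 (0.041), and for Slc12a2 Mrps11 (0.022), Kcnj9 (0.046) and Gsn (0.047). Slc8a1 was matched by Cab39 (0.022), Rpl35a (0.025) and Dlg4 (0.025), and Car4 by Abl2 (0.039), Zfhx2 (0.044) and N4bp2l2 (0.044). None of these was one of the cell type markers.

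The wider ion transport machinery was taken from 10 lists of 83 gene symbols, of which 82 were found and 64 were expressed at a mean of at least 1 FPKM. In limma 0 of 64 passed the adjusted threshold, and 6 had an unadjusted p under 0.05 (4.46% of all genes tested did), 2 with higher and 4 with lower values in Ins2-AKITA, each at an adjusted p of 0.90. Of the 64, 21 had positive and 43 negative log2 fold changes, with a median of -0.08 against -0.03 for all genes tested. Leaving out single mice moved the median of the 64 between -0.24 (without Ins2-AKITA replicate 1) and -0.01 (without Ins2-AKITA replicate 2). Scaled as TPM, the median of the 64 relative to all genes turned to 0.31, which again rests on the 1 added before the log. The 2 Ins2-AKITA mice lay above all WT mice for 5 of the 64 and below for 7, shares near the 9.24% and 10.3% of all genes tested.

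Among the FXYD proteins, small membrane partners that tune the pump, 0 of 7 passed the adjusted threshold, 2 had positive and 5 negative values. Fxyd5, also called dysadherin, had the smallest unadjusted p of the lists at 0.0057. It stood at 48.8, 22.9 and 22.2 FPKM in WT and 10.5 and 7.86 FPKM in Ins2-AKITA, with no overlap and a log2 fold change of -1.59 (standard error 0.39, limma adjusted p = 0.90). Fxyd1, or phospholemman, was the most abundant at 49.8 ± 9.56 FPKM in WT and 41.9 ± 2.54 FPKM in Ins2-AKITA, and Fxyd3 had the highest log2 fold change of this list, 0.63, which was 0.24 without WT replicate 1 and 0.38 without Ins2-AKITA replicate 2.

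For the relatives of Slc12a2, 6 of 9 cation-chloride cotransporters were expressed, 2 with positive and 4 with negative values and 0 past either threshold. Slc12a5 (KCC2), the chloride exporter of neurons, led with 74.5 ± 13.4 FPKM in WT and 70.7 ± 20.8 FPKM in Ins2-AKITA, well above Slc12a2. Slc12a9 was 8.57, 9.30 and 10.5 FPKM in WT and 12.6 and 16.7 FPKM in Ins2-AKITA (log2 fold change 0.58, limma adjusted p = 0.90), and Slc12a7 had the lowest value, -0.19. Of 5 kinases that act on these cotransporters, 1 had a positive and 4 negative values, and the most abundant was Wnk1, with 140.5 ± 29.7 FPKM in WT and 176 ± 47.7 FPKM in Ins2-AKITA. Wnk4 stood at 5.28, 6.99 and 5.35 FPKM in WT and 3.92 and 0.72 FPKM in Ins2-AKITA, a log2 fold change of -1.23 (unadjusted p = 0.049, limma adjusted p = 0.90). It was -0.47 without Ins2-AKITA replicate 2 and -1.99 without Ins2-AKITA replicate 1.

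Slc8a1 had the highest mean FPKM over the 5 mice of the 8 expressed sodium-calcium exchangers, although the neuronal Slc24a2 exceeded it in WT replicates 1 and 2 (77.4 and 78.5 FPKM; named after its values were seen). Of these 8, 5 had positive and 3 negative values. Slc8a3, a relative found in neurons and muscle, was at 10.5, 13.4 and 12.2 FPKM in WT and 18.2 and 19.7 FPKM in Ins2-AKITA. Its groups did not overlap, and its log2 fold change was 0.62 (standard error 0.22, unadjusted p = 0.029, limma adjusted p = 0.90). Slc24a6, the exchanger of mitochondria, had the highest value of the list at 1.13, from 2.69, 9.99 and 8.04 FPKM in WT to 11.2 and 19.2 FPKM in Ins2-AKITA, and Slc24a4 the lowest at -0.26. Without WT replicate 1 the value of Slc24a6 was 0.65. Of 8 calcium pumps, which clear the same ion at the cost of ATP, 1 had a positive and 7 negative values. Atp2b2, a plasma membrane pump, was highest at 151 ± 2.25 FPKM in WT and 143 ± 5.79 FPKM in Ins2-AKITA. The muscle pump Atp2a1 was at 1.88, 3.27 and 1.31 FPKM in WT and 0 and 0.24 FPKM in Ins2-AKITA, with a log2 fold change of -1.46 (unadjusted p = 0.035, limma adjusted p = 0.90), and the Golgi pump Atp2c1 had the highest value, 0.08.

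Of 7 expressed sodium-proton exchangers, which use the pump's gradient to export acid, 3 had positive and 4 negative values. In limma 0 of the 7 passed the adjusted threshold, and Slc9a8 had the lowest value of the list, -0.77 (-0.48 without WT replicate 1 and -1.22 without WT replicate 3), at 28.9, 23.3 and 9.67 FPKM in WT and 12.4 and 8.99 FPKM in Ins2-AKITA, with the groups overlapping.

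Of the 9 expressed carbonic anhydrases, 4 had positive and 5 negative values. The cytosolic Car2, abundant in glia, reached 68.5 ± 24.8 FPKM in WT and 95.01 ± 10.02 FPKM in Ins2-AKITA. Car14, which like Car4 faces the outside of the cell, was at 20.3, 16.5 and 15.3 FPKM in WT and 11.8 and 10.4 FPKM in Ins2-AKITA, with no overlap and a log2 fold change of -0.59 (unadjusted p = 0.040, limma adjusted p = 0.90). Car8 had the highest value of the list at 0.80, which was 0.31 without WT replicate 1 and 1.27 without WT replicate 3, and Car7 the lowest at -1.15, the latter set by Ins2-AKITA replicate 2, which held 0.61 FPKM against 7.19 FPKM in its group mate. Of 8 bicarbonate transporters, the partners of the carbonic anhydrases, 1 had a positive and 7 negative values, with 0 past either threshold. Slc4a4, the sodium-bicarbonate cotransporter of astrocytes, led with 171 ± 20.6 FPKM in WT and 165 ± 11.2 FPKM in Ins2-AKITA. Slc4a2 was level between the groups (0.01), and Slc4a5, a choroid plexus transporter, had the lowest value, -0.83, with 30.9 FPKM in WT replicate 2 against 2.80 to 7.17 FPKM in the other mice.

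**Figure D4:**
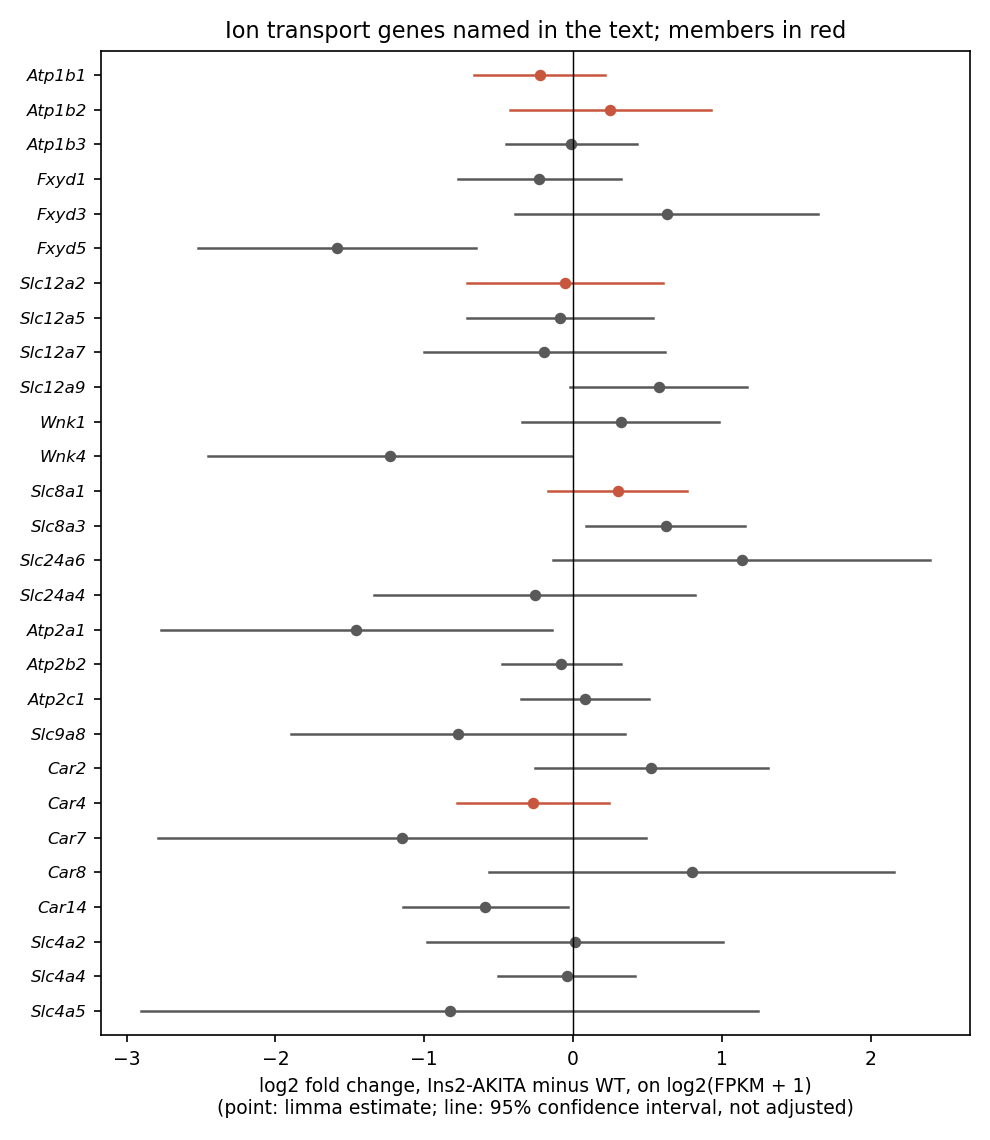
Log2 fold changes of Ins2-AKITA minus WT on log2(FPKM + 1) for the 28 named ion transport genes (horizontal axis), with points for the limma estimate and lines for the unadjusted 95% confidence interval, and members in red. The intervals of all 5 members cross 0, and that of Fxyd5 lies farthest below it (-2.52 to -0.65). As TPM relative to all genes, Atp1b1, Slc12a2 and Car4 turn positive, which rests on the 1 added before the log.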

How the data were processed

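Per the labels, rRNA and tRNA were depleted from total RNA, and stranded libraries were made with a low-input kit. The submitters' processing notes name TopHat2 2.0.4, Picard 1.92, Cufflinks 2.2.1 and the build NCBIM37. The authors deposited 1 table of FPKM values per mouse, and the program behind these single-mouse values is not given in the sources used here. Identifiers were matched to GENCODE vM1 (37197 matched, 785 not), and rows sharing a symbol were summed. Genes with a mean of at least 1 FPKM were fitted as log2(FPKM + 1) with limma 3.58.1 in R 4.3.3 (lmFit, eBayes with a trend, genotype as the only term), with Benjamini-Hochberg adjustment over all genes and a threshold of 0.05, both sides counted. The fit was checked on simulated data. Single ratios and shares were compared by exact two-sided permutation tests and adjusted over those computed, with Python 3.11.15, numpy 2.4.6, pandas 2.3.3 and matplotlib 3.10.9. Raw counts were not used here. Fragments per mouse were estimated from the steps between low FPKM values of genes with 1 transcript, of which 97.6 to 97.9% came out whole within 0.05. The limma intervals and p-values rest on the spread between 5 mice, drawn toward a trend fitted over all genes. The permutation p-values rest on the 5 mice alone, and counting errors cover counting alone.

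The members and gene lists were chosen with earlier results of these data known. In each list the text names the genes with an unadjusted p under 0.05, the most abundant gene and those with the lowest and the highest log2 fold change, together with the other beta subunits of the pump; some results under this rule are not reported here. Alternatives were another pseudocount (0.1), filters (none, or a mean of 5 FPKM), scalings (TPM, protein-coding sum, median ratio, quantile), a constant prior variance, the highest row per symbol, protein-coding genes alone, a replicate block and the omission of each mouse. The labels number the mice within each group and do not say which mice shared a litter, so the mice were not paired. Deviations from the group means correlated at 0.05 between replicates 1 and at -0.03 between replicates 2. With 2 Ins2-AKITA mice these deviations mirror each other, so the correlations cannot exclude a pairing.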

Additional observations from a re-analysis of the deposited data

How the results depend on the processing

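No member passed either threshold in any of the 16 alternative fits. Of 80 member values under these alternatives, 74 kept their sign and 6 turned. The 365 values of the 23 other named genes turned in 23 cases. Of the 21 ratios and shares, 15 were recomputed under 8 alternatives each, and 0 of those 120 values turned. These alternatives were FPKM + 1 in place of FPKM, the highest row per symbol, a replicate block and the omission of each mouse. No rescaling of the libraries was among them. Apart from TPM, the log2 fold changes ran from -0.31 to -0.14 for Atp1b1, 0.07 to 0.49 for Atp1b2, -0.28 to 0.17 for Slc12a2, 0.22 to 0.41 for Slc8a1 and -0.43 to -0.11 for Car4. The depth of 1126990 to 2850560 fragments and the 2 diabetic mice limit what could be seen, and an Ins2-AKITA mouse left alone was assumed to vary like WT.

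TPM scaling, which divides by a sum dominated by small and ribosomal RNA, shifted the median over the 16286 genes by more than 1 log2 unit, from -0.03 to 1.07, and turned the unadjusted calls from 249 higher and 477 lower to 1808 higher and 105 lower, the adjusted ones from 0 and 4 to 58 and 30. Relative to that median, these signs turned: Atp1b1 (0.38), Slc12a2 (0.16), Car4 (0.25), Atp1b3 (0.44), Fxyd1 (0.26), Slc12a5 (0.46), Slc24a4 (0.080), Atp2b2 (0.53) and Slc4a4 (0.56), and the median of the pathway genes was 0.31. TPM scaling multiplies all genes of a library alike, so it moved them against the median only through the 1 added before the log. Slc12a2 was 0.0012 with quantile normalization, Slc4a2 -0.030 with protein-coding sum scaling and Atp1b3 0.014 with median-ratio scaling.

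With a replicate block, which drops the unmatched WT replicate 3, 0 members were called (smallest adjusted p 0.60 in limma), at -0.30 for Atp1b1, 0.49 for Atp1b2, -0.15 for Slc12a2, 0.41 for Slc8a1 and -0.35 for Car4. The signs of Slc4a4 (0.036), Slc4a2 (-0.35) and Atp1b3 (0.065) turned there, and pathway genes with an unadjusted p under 0.05 numbered 8 in place of 6. Without single mice these ranges crossed 0: Slc12a2 -0.28 to 0.17, Slc12a5 -0.39 to 0.21, Slc12a7 -0.41 to 0.020, Slc24a4 -0.67 to 0.10, Atp2c1 -0.042 to 0.20, Car7 -2.32 to 0.024, Slc4a4 -0.14 to 0.036, Slc4a5 -1.53 to 0.010, Slc4a2 -0.35 to 0.37 and Atp1b3 -0.054 to 0.065. The unadjusted pathway count was 1 without WT replicate 1, 3 without WT replicate 2, 9 without WT replicate 3 and 2 without Ins2-AKITA replicate 2, and was 3 with quantile normalization. The cause of the turns under settings other than TPM was not tested.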
